A study of Mus musculus with 15 samples.

Results

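The intergenic H3K27ac peaks of an MCP tumor library that lay 2 to 100 kb from a start site were examined. A peak was a member when it overlapped no window of 2 kb either side of a RefSeq start site, when its summit, the position of highest enrichment, lay in no RefSeq transcript, and when the summit was at most 100 kb from the nearest start site. These conditions were met by 25383 of the 122375 peaks of the library, or 20.7% (Wilson 95% interval 20.5 to 20.97%).

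The peaks came from tumors of a mouse model of fusion-positive rhabdomyosarcoma (FP-RMS), a cancer of soft tissue in which PAX3-FOXO1 (P3F), a fusion of 2 transcription factors, is the driver. MCP mice carried Myf6-Cre, which acts in myogenic cells, and TCP mice carried Tek-Cre, which acts in endothelial cells. All mice of both groups also carried Cdkn2a(Flox/Flox), the allele Pax(3P3F/P3F), from which Cre turns on P3F, and the tdTomato reporter R26-tdTom, so no group lacked P3F or kept an unfloxed Cdkn2a. The series held 15 CUT&RUN libraries, of which 9 used an H3K27ac antibody (6 MCP, 3 TCP) and 6 used IgG, a control antibody (3 of each). The peak list used here belonged to MCP H3K27ac replicate 5, called against IgG, and the other libraries were not analysed here. With 1 library there were no replicates and no comparison between tumors, and every interval below covers counting error within this library only. The intervals count each peak as independent. Neighboring peaks can be pieces of 1 region, so the intervals can be too narrow even for counting error. Tumors were dissociated and live cells taken by FACS with DAPI as the marker of dead cells. Whether the cells for these libraries were also gated on tdTomato, which would remove cells without Cre activity, is not given in the sources used here.

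H3K27ac is an acetyl mark that the coactivators p300 and CBP place on the histones beside active promoters and enhancers. Enhancers are stretches of DNA that bind transcription factors and raise the transcription of a gene at a distance, often across other genes, so the nearest gene is not always the gene that an enhancer acts on. In muscle, MYOD1 and its relatives open enhancers through E-box sequences, and in FP-RMS P3F binds mainly away from promoters and keeps such enhancers active.

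Sequences that reach 100 bp either side of the summits of some members show what these regions hold. They are given for the pair with the highest fold enrichment (Insig2 and Odf1), for the members of highest fold that hold an AP-1 site (Rgs4 and Epdr1), an E-box (Epdr1 and Plcxd1) or the composite PAX3-FOXO1 core (Plekha6 and Gm31465), and for the strongest member beside Myf6 and Cdkn2a. Each member is named after its nearest gene, coordinates are those of mm10, the plus strand is shown, and the letters come from RefSeq's copy of that build. Capitals mark matches on either strand to TGANTCA (AP-1), CAGCTG (the E-box of MYOD1 and MYOG) and TGACTAAT (the composite core). The members with a motif were picked after their values were seen.
Insig2 member, chr1:121360393-121360593: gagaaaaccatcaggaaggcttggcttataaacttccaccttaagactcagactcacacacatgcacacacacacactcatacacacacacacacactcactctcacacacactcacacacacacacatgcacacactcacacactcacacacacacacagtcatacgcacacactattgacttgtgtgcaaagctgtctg
Odf1 member, chr15:38176001-38176201: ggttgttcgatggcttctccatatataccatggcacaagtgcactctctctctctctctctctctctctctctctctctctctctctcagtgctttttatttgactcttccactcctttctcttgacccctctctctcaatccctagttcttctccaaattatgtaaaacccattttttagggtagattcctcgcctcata
Rgs4 member, chr1:169756744-169756944: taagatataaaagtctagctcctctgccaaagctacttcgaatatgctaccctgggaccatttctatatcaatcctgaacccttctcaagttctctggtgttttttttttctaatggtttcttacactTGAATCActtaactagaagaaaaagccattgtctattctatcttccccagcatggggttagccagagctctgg
Epdr1 member, chr13:19581242-19581442: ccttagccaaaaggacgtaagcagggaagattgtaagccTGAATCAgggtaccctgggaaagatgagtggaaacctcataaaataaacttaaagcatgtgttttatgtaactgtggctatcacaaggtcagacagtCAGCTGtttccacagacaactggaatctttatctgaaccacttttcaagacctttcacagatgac
Plcxd1 member, chr5:110058134-110058334: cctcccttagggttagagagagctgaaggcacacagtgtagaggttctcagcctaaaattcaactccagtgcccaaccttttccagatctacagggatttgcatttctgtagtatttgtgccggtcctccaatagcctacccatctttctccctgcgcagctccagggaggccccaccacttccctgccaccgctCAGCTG
Plekha6 member, chr1:133217968-133218168: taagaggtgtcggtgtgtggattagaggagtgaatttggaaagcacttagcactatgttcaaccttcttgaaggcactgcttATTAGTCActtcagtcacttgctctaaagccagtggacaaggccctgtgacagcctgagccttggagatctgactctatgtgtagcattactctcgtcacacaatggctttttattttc
Gm31465 member, chr1:30143626-30143826: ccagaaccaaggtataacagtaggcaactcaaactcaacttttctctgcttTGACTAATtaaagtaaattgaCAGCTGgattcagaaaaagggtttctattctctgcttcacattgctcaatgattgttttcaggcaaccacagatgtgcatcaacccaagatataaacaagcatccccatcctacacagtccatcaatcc
Myf6 member, chr10:107502171-107502371: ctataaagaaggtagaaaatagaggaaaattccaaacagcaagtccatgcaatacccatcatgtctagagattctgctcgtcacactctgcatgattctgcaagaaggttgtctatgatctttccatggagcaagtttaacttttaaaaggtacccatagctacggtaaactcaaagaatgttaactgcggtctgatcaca
Cdkn2a member, chr4:89273141-89273341: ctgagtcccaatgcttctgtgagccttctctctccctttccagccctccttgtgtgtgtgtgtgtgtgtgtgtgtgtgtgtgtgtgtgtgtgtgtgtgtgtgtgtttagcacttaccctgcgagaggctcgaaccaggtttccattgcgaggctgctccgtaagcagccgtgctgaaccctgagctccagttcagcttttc
A run of repeated CT lay in the Odf1 window and one of TG in the Cdkn2a window, and the Insig2 window held shorter stretches of CA. No capital letters, and so no match to these motifs, fell in the windows of Myf6 or Cdkn2a. The Epdr1 window held both an AP-1 site and an E-box, and the Gm31465 window held the composite core beside an E-box.

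The members were typical of the list in strength. Fold enrichment was taken as the fragments at a summit over those of the IgG background, with a constant added to both. Its median was 5.20 (exact binomial 95% interval 5.15 to 5.22), against 5.49 at promoter peaks (5.37 to 5.56), 5.05 in introns (5.05 to 5.11) and 5.13 more than 100 kb from a start site (5.05 to 5.20). The middle 80% of the members ran from 3.73 to 8.21, and 994 members (3.92%) reached 10. Median width was 163 bp (161 to 165 bp), and 405 members (1.60%) were at least 1500 bp wide. The median member had 13 fragments over its summit, a relative Poisson error of 27.7%, and 84.5% of the members had fewer than 20. For 45.2% of the members the inferred background was the lowest in the list, so fold there rose with the fragment number alone. At this depth the fold of a single member is loosely fixed, and differences in fold between members of similar strength were not detectable. Across members, fold rose with width (Spearman's rho 0.49, n = 25383) and had almost no relation to distance (rho 0.01). Fold and width are read from the same fragments, so the former is a description only.

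The members covered 7.41 Mb and lay in 807 Mb of eligible sequence. This is the sequence outside RefSeq transcripts that lies more than 2 kb and at most 100 kb from the nearest start site. A peak whose edge reached a 2 kb window was not a member, even where its summit lay in eligible sequence. This gave 31.4 peaks per Mb. Peaks in introns away from promoters reached 64.2 peaks per Mb, promoter peaks 257, and intergenic peaks beyond 100 kb only 10.7. Eligible sequence was 30.5% of the chromosomes, so the members' share of the list was 0.680 times their share of sequence. Most members lay close to another peak. The next summit was a median of 0.466 kb away and within 1 kb for 77.1% of the members, so several members can be pieces of 1 acetylated region. Keeping only the strongest of the peaks within 1 kb of the next left 12122 members.

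Density fell with distance from the nearest start site. It was 39.0 peaks per Mb at 2 to 5 kb (exact Poisson interval 37.4 to 40.5), 36.3 at 5 to 10 kb, 35.6 at 10 to 20 kb, 32.3 at 20 to 50 kb and 24.2 at 50 to 100 kb (23.6 to 24.8). The density at 2 to 10 kb was 1.54 times that at 50 to 100 kb. This ratio was above 1 on 18 of the 20 chromosomes with members, with a median of 1.47, and ran from 0.761 on chromosome 16 to 3.37 on chromosome 11. The decline was shallow, and in numbers most members lay more than 20 kb from the nearest start site. The median distance was 24.4 kb (quartiles 11.05 and 46.9 kb), 8650 members lay at 20 to 50 kb and 5815 at 50 to 100 kb, against 2395 at 2 to 5 kb. Strength and width stayed nearly level, with a median fold of 5.05 at 2 to 5 kb (4.89 to 5.15) and 5.21 at 50 to 100 kb (5.13 to 5.22) and a median width of 153 bp (147 to 158 bp) and 165 bp (160 to 170 bp). By the rule, wide peaks with a summit just past 2 kb were left out when their edge reached the 2 kb window. This can lower the count and the width at 2 to 5 kb, and its size was not measured. The limit of 100 kb cut through a region of low density, with 204 members in the last 2 kb inside it and 153 intergenic peaks in the first 2 kb outside.

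**Figure D1:**
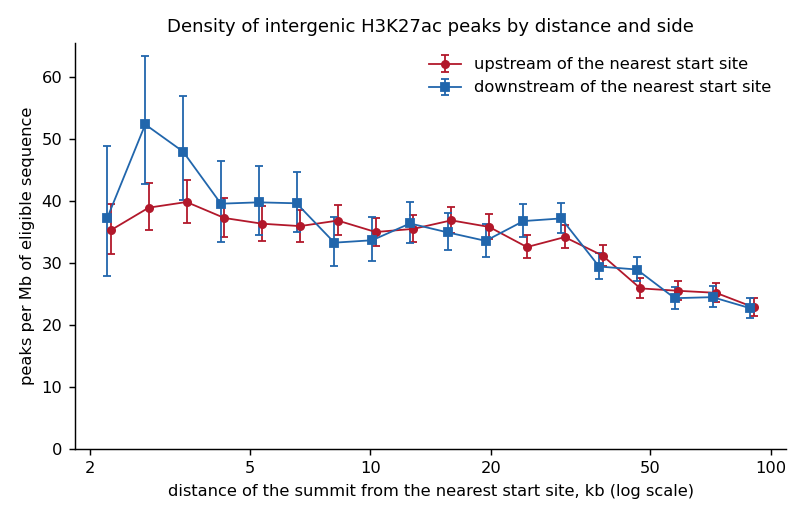
Peaks per Mb of eligible sequence (y axis) against the distance of the summit from the nearest start site in kb (x axis, log scale), upstream in red circles and downstream in blue squares, with exact Poisson 95% intervals as bars. Both sides run at about the same level and fall past 30 kb, and the downstream points stand highest near 3 kb.

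Upstream and downstream sequence carried members at nearly the same density. Upstream of the nearest gene's start lay 16585 members (65.3%) in 64.5% of the eligible sequence, which gave 31.8 peaks per Mb (31.4 to 32.3), against 30.7 downstream (30.1 to 31.3). The ratio was 1.04, it ran from 0.713 on chromosome 12 to 1.51 on chromosome 5, and it was above 1 on 11 of 20 chromosomes. The spread between chromosomes was thus wider than the difference, which turned to 0.986 when only protein-coding genes were used. At 2 to 5 kb the order was the other way, with 43.9 peaks per Mb downstream (40.1 to 48.1) and 37.9 upstream (36.2 to 39.6). The sequence 2 to 5 kb downstream is by the rule only that past the end of short transcripts, 10.8 Mb against 50.7 Mb upstream. The 475 members there were also weaker, with a median fold of 4.79 and 1.05% at fold 10 or more, against 5.11 and 4.06% for the 1920 members upstream. At 20 to 50 kb downstream sequence again stood slightly higher, 33.0 (31.9 to 34.1) against 31.8 (30.9 to 32.7).

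The members divided by the state of the nearest promoter. A start site was called marked when any peak overlapped its 2 kb windows, which held for 42.2% of the 31601 start sites. The nearest start site was marked for 16097 members (63.4%, Wilson interval 62.8 to 64.0%), while such sites were nearest to 29.3% of the eligible sequence, a ratio of 2.17. Under GENCODE annotation, an alternative added after the data were seen, the ratio was 3.80. Density was 68.1 peaks per Mb beside marked start sites (67.1 to 69.2) and 16.3 beside unmarked ones (15.9 to 16.6), 4.19 times apart. The ratio of shares was above 1 on all 20 chromosomes, from 1.63 on chromosome 13 to 3.88 on chromosome X. The decline with distance was seen beside marked start sites, where density fell from 94.7 peaks per Mb at 2 to 5 kb to 50.1 at 50 to 100 kb. Beside unmarked start sites it went from 13.7 (12.6 to 14.9) through 18.2 at 10 to 20 kb (17.4 to 19.1) to 14.3 (13.7 to 14.9), with no fall from the nearest class to the farthest. Whether a wide acetylated domain at the promoter, cut into several peaks, adds to the counts near marked start sites was not tested.

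**Figure D2:**
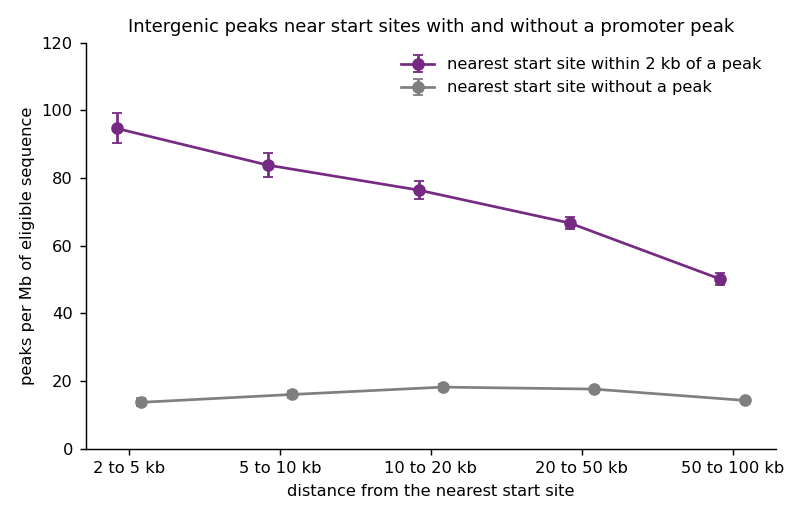
Peaks per Mb of eligible sequence (y axis) in 5 classes of distance from the nearest start site (x axis), for start sites with a peak within 2 kb in purple and without one in grey, with exact Poisson 95% intervals as bars. The purple points fall from 94.7 to 50.1 peaks per Mb and the grey points stay between 13.7 and 18.2.

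The kind of nearest gene mattered less. Protein-coding genes were nearest to 19038 members at 31.2 peaks per Mb and lncRNA genes to 19.8% at 32.8. The 925 members nearest to a microRNA gene stood at 44.2 peaks per Mb, and the 386 beside other noncoding genes and pseudogenes at 16.5. The gap between neighboring transcripts made more difference. Gaps under 20 kb held 49.1 members per Mb (47.4 to 50.9), and the density fell step by step to 12.7 (12.0 to 13.4) in gaps over 500 kb. The arrangement of the flanking genes moved it little, with 33.0 peaks per Mb between genes that point toward each other (32.1 to 33.9), 31.8 between genes that point apart (31.1 to 32.6) and 30.8 between genes in tandem (30.3 to 31.4).

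Chromosomes differed widely. Chromosome 1 held 50.6 members per Mb and chromosome 11 held 49.1, while chromosome X held 6.09 and chromosome Y had none in 13.6 Mb. Chromosome Y had 1 listed peak in all. On the other 20 chromosomes the members' share of the peaks stayed between 18.3% on chromosome 4 and 23.8% on chromosome 3, so the members followed the rest of the list. The labels do not give the sex of the animal or the copy number of the tumor, and neither was measured.

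**Figure D3:**
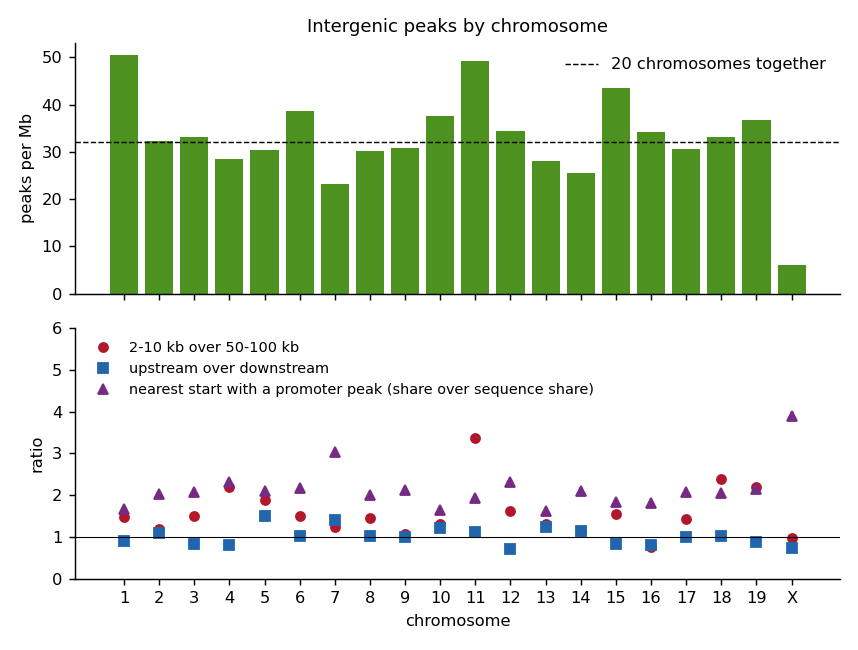
Peaks per Mb of eligible sequence (upper y axis, bars) and 3 ratios (lower y axis, points) on each of 20 chromosomes (x axis), where red circles are near over far density, blue squares upstream over downstream density and purple triangles the share of members beside a marked start site over that of sequence. Density runs from 6.09 on X to 50.6 on chromosome 1, all triangles lie above 1, and the squares lie on both sides of 1.

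Members were spread unevenly over genes. Of the 17858 protein-coding genes with eligible sequence, 4179 (23.4%) were nearest to at least 1 member and 7472 (41.8%) had a promoter peak. The median number of members per such gene was 0, and the 477 genes with 10 or more members held 40.0% of the members nearest to a protein-coding gene. A member lay beside 35.3% of the genes with a promoter peak and beside 14.8% of those without, although the latter had more eligible sequence, a median of 22.3 kb against 14.7 kb.

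The gene with most members was the lncRNA 4933440J02Rik on chromosome 10, with 83 members from 2.69 to 99.7 kb away, 53 upstream and 30 downstream. The strongest of them had a fold of 16.0. Cdon, a cell surface receptor that promotes myogenic differentiation, had 51 members from 3.11 to 85.0 kb upstream, the side on which all of its eligible sequence lay. The same holds for Mef2a, Mef2d, Des, Cdh5, Vwf, Col1a1, Col5a1, Igf1r, Met and Hmga2 below, so the side of their members is set by the rule. The density beside Cdon was 611 peaks per Mb. Irf2bp2 and Irf2bpl, related transcriptional cofactors, also had 51 members each. For Irf2bp2 37 lay in 98.0 kb of eligible sequence upstream and 14 in 53.8 kb downstream. For Irf2bpl 47 lay in 71.1 kb downstream and 4 in the 1.88 kb upstream. Gm8883 had 52 members. The others of the 10 were Sik1, a salt-inducible kinase (47), 5830428M24Rik (45), Dusp6, a phosphatase that dampens ERK signaling (44), 4930511E03Rik (44) and Cdkn2a (42). All 10 genes had a promoter peak, and the highest fold of a member ran from 8.67 beside Cdkn2a to 16.0.

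**Figure D4:**
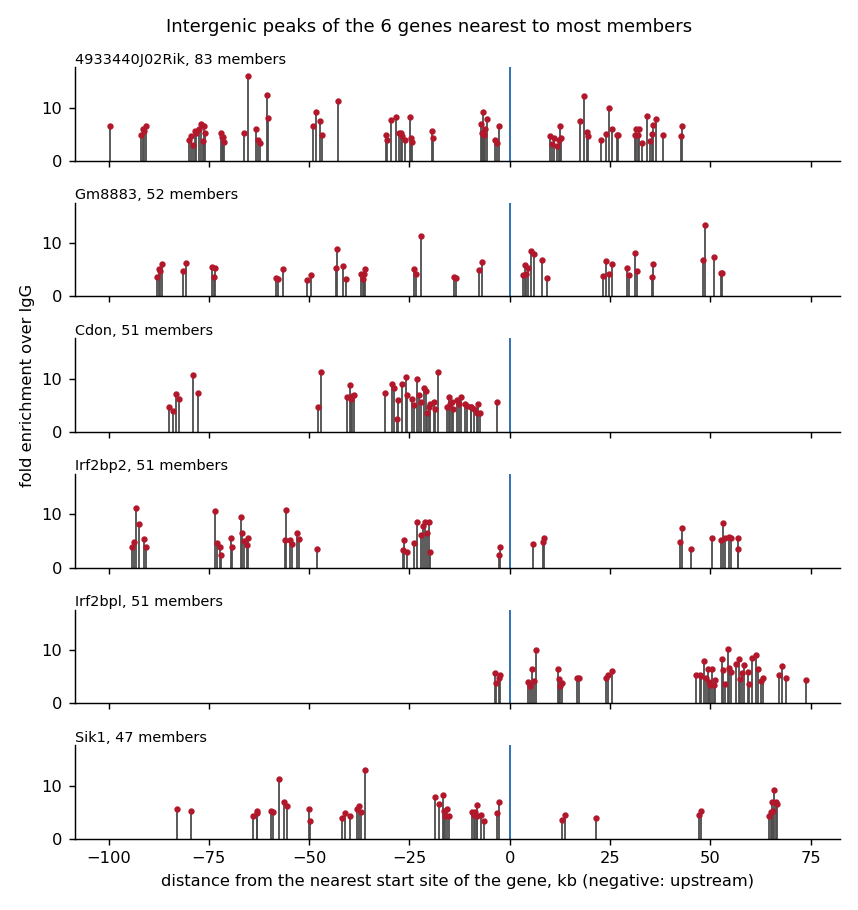
Fold enrichment over IgG (y axis) of each member against its distance in kb from the nearest start site of the gene (x axis, negative upstream, blue line at the start site) for the 6 genes nearest to most members. The members of Cdon lie upstream and those of Irf2bpl nearly all downstream, the sides that hold all or nearly all of their eligible sequence, and no fold beside these genes passes 16.0.

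Cdkn2a encodes the cell cycle inhibitors p16INK4a and p19ARF and is floxed in all of these mice. Its 42 members lay downstream, as did all of its eligible sequence, from 8.95 to 71.9 kb from the nearest of its start sites, at 649 peaks per Mb. The strongest, shown above, had a fold of 8.67 from 19 fragments, and the median fold was 4.77. Foxo1, which gave the activation domain to P3F, had 6 members at 67.8 to 70.7 kb upstream with a highest fold of 8.42. Pax3 had a promoter peak and no member, with 4.17 kb of eligible sequence.

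Of 20 myogenic genes, 8 (Wilson interval 21.9 to 61.3%) were nearest to a member and 7 had a promoter peak, beside the 23.4% and 41.8% of all protein-coding genes above. Their density was 74.98 peaks per Mb and their median number of members 0, as for all genes. Of their 56 members, 17 were nearest to Mef2a and 13 to Myf6. Myf6, a myogenic regulatory factor whose locus drives Cre in these mice, had 13 members in a stretch from 3.64 to 10.6 kb upstream. Their fold ran from 3.73 to 10.3, with the strongest at 7.55 kb, 626 bp wide with 26 fragments. Myf5, its neighbor and an early myogenic factor, had no promoter peak and 4 members at 23.1 to 49.1 kb downstream, none above a fold of 5.22. Mef2a, a partner of the myogenic factors, had 17 members at 16.9 to 82.1 kb upstream, with a highest fold of 7.80. Mef2d had 4 within 4.10 kb upstream, the strongest with a fold of 12.9. Des, which encodes the muscle filament desmin, had 6 members at 12.0 to 14.7 kb upstream and no promoter peak. Fgfr4, a growth factor receptor used as an FP-RMS marker, had 5 members at 18.3 to 22.5 kb downstream, the strongest 1759 bp wide with a fold of 9.77. Myod1 and Myog, the defining markers of rhabdomyosarcoma, had neither a promoter peak nor a member, with 7.91 and 4.23 kb of eligible sequence. Pax7, Mef2c, Msc, Chrna1 and Mymk had neither as well. The study reports that MCP mice developed several types of tumor, and that MYOD1 and MYOGENIN staining in MCP tumors was focal. The histology of the tumor behind this library is not given in the sources used here.

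Genes of other cell types were beside members in shares and at densities that lay near or below those of all protein-coding genes, 23.4% and 31.2 peaks per Mb, or had intervals that held them. The interval of the myogenic share held 23.4% as well. Among 18 endothelial genes 7 (38.9%, Wilson interval 20.3 to 61.4%) were nearest to a member at 29.7 peaks per Mb, and 2 had a promoter peak. This share was close to the 40.0% of the myogenic genes. Cdh5, the endothelial cadherin, had 7 members at 39.4 to 79.0 kb upstream, Vwf 5 at 12.3 to 25.6 kb and Emcn 4 at 3.81 to 9.39 kb, none with a promoter peak at the gene. Cldn5 had 3 members at 43.8 to 71.2 kb and no promoter peak, and held the strongest endothelial member, with a fold of 10.8. Cd34 had a promoter peak and 4 members, with a highest fold of 8.67. Kdr, Tek, Erg and Fli1 had no member. For immune genes the count was 2 of 13 (Ptprc and Csf1r, 3 members in all, 12.1 peaks per Mb), for neuronal genes 4 of 13 (12.9 peaks per Mb, none with a promoter peak), and for hepatocyte genes 0 of 12, which allows a share of up to 25.0%. Each is a count over a short list, and the part of other cell types in these peaks was not tested.

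Genes of AP-1, of the mesenchyme and of growth control are given next, beside the same 23.4% and 31.2 peaks per Mb of all protein-coding genes. Of 12 AP-1 genes, 8 (Wilson interval 39.1 to 86.2%) were nearest to a member, at 174 peaks per Mb, and 9 had a promoter peak. Jun had 35 members, 29 of them upstream, as far as 55.6 kb. Fos had 15 and Junb and Fosb 6 each, while Jund, Batf, Batf3 and Mafk had none. Among 16 genes of mesenchymal factors and matrix the count was 11 (44.4 to 85.8%), at 59.6 peaks per Mb, and 10 had a promoter peak. Snai1, a repressor of epithelial genes, had 19 members, all 4.92 to 38.3 kb downstream, and Col5a1 had 19 upstream, Col1a1 10 and Col3a1 10. The strongest Col3a1 member was 4128 bp wide. Tcf21, Postn, Zeb2 and Meox1 had no member in 139, 109, 98.0 and 64.7 kb of eligible sequence, and Snai2 and Runx1 had 1 each. Of 17 genes of growth control 9 were beside a member (31.0 to 73.8%), at 100 peaks per Mb, and 12 had a promoter peak. These intervals overlap that of the myogenic genes. A gene with more eligible sequence has more room for a member, and the shares were not adjusted for this. The 16 mesenchymal genes held 1.51 Mb and the 17 of growth control 0.927 Mb, against 610 Mb for all 17858 protein-coding genes. Of all protein-coding genes with a promoter peak, 35.3% were beside a member. Fgfr1 and Egfr, both receptor tyrosine kinases, had 18 members each, on the upstream side that held all 98.0 kb of their eligible sequence, Igf1r, the IGF receptor, had 15, and Met and Hmga2 10 each. Mycn had 8 members at 31.2 to 84.1 kb upstream, the strongest with a fold of 10.9, and no promoter peak, while Myc had a promoter peak and 1 member, with a fold of 3.95. Alk had no member in 98.0 kb of eligible sequence, and Ccnd2, Erbb2, Pdgfra and Pdgfrb had no member either. Of 8 housekeeping genes 4 were beside a member (133 peaks per Mb), led by Actb with 15, of which the strongest had a fold of 16.0. A further list held 13 genes of enhancer-binding cofactors and histone enzymes, among them Ep300 and Hdac2. Of these 12 had a promoter peak, and none was nearest to a member in 0.317 Mb of eligible sequence, which allows a share of up to 23.1%, close to the 23.4% of all genes.

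When neighboring summits were joined over the distance that the study used to stitch super-enhancers, the members formed 6798 runs. Single members made up 2305 of them, and 496 runs of 10 or more held 30.9% of the members. The longest held 62 members at chr12:69363562-69463243, 36 nearest to Arf6, a small GTPase, and 25 to 5830428M24Rik. Runs of 60 and 53 members lay on chromosome 10 on either side of 4933440J02Rik, the former shared with Phlda1. A run of 53 at chr4:150748059-150828556 fell to the noncoding genes Gm51276 and Gm42356, and a run of 52 at chr15:85610858-85698805 to Lncppara (38) and Wnt7b (14), a WNT ligand. The median fold within these 5 runs was 5.06 to 5.65, close to that of all members.

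Most of the strongest members were broad. A member 27.9 kb upstream of Insig2, a regulator of cholesterol synthesis, led with a fold of 25.8 from 78 fragments (chr1:121359671-121360594). It was followed by one 43.1 kb upstream of Odf1, a sperm tail protein gene with no promoter peak, with a fold of 25.4 and a width of 3569 bp. Of the other 8 the fold ran from 20.4 beside Chaserr, 58.8 kb away, to 23.0 beside Ap1s3, 91.3 kb away, and all were at least 1697 bp wide. At 2 to 5 kb the strongest was 4.95 kb upstream of Clca4a (fold 21.4), and on the downstream side 4.20 kb from Bst2 (14.7). At 5 to 10 kb these were Rgs4 (19.1) and Snord118 (16.8), at 10 to 20 kb 9330199G10Rik (21.1) and Rdm1 (18.3), at 20 to 50 kb Insig2 and 4930477N07Rik (22.9), and at 50 to 100 kb Chaserr and Ap1s3. The widest member, 5661 bp, lay 36.2 kb upstream of Lncppara within the run on chromosome 15.

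In sequence the members were richer in G and C and poorer in repeats than the eligible sequence of all chromosomes together. Median GC content within 100 bp of the summits was 45.8%, against 42.3% over 4017167 eligible windows, and median repeat content 11.4% against 27.4%. CpG dinucleotides were at 0.189 of the frequency that the base content predicts, against 0.143 in eligible windows and 0.389 at promoter peaks. Reads that map to several places can be lost from repeats, and whether this lowered the repeat content was not tested.

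An AP-1 site (TGANTCA), the site of JUN and FOS dimers, was in 9.18% of the members (Wilson interval 8.83 to 9.54%) and in 5.98% of eligible windows, a ratio of 1.53. The ratio over flanking windows centered 1.5 kb from the summits and outside any peak was 1.54, and on each of 20 chromosomes it was above 1 (1.21 to 1.97). AP-1 sites were found in 8.26% of members at 2 to 10 kb and in 10.4% at 50 to 100 kb, while promoter peaks held them in 4.92% and intergenic peaks beyond 100 kb in 10.6%. Members with a fold of 10 or more held them in 6.34%. The E-box CAGCTG was in 10.6% of members and 7.36% of eligible windows, 1.44 times eligible and 1.22 times flanking windows, and above eligible windows on all 20 chromosomes. The composite core TGACTAAT, a paired domain and homeodomain site bound by P3F, was rare, in 229 members (0.902%) and 0.631% of eligible windows, at 1.43 times eligible and 1.57 times flanking windows. The former ratio was above 1 on 19 of 20 chromosomes (0.585 to 2.34). Promoter peaks held the core in 0.303%, peaks in introns in 0.791% and intergenic peaks beyond 100 kb in 1.23%. In members with a fold of 10 or more the share was 0.503%. The letters of the core and of the AP-1 site cannot match at the same position.

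Of the other motifs, that of ETS factors (CCGGAAG) was in 1.12% of members and 0.565% of eligible windows, and stood at 1.98 times eligible and 1.56 times flanking windows. The GC box of SP and KLF factors (GGGCGG), in 3.07% and 1.80%, stood at 1.71 and 1.11 times, so most of its excess was shared by the flanks.

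The E-box of MYC (CACGTG) was in 2.00% of eligible windows, and members were at 1.24 times that share and at 0.936 times the flanks. The RUNX motif (TGTGGTT, in 4.95% of eligible windows) had ratios of 1.15 and 1.05, and the TEAD motif (GGAATG, in 11.04%) of 1.11 and 1.17.

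The forkhead motif (TGTTTAC, in 2.87% of eligible windows) had ratios of 1.15 and 1.25, of which the latter is above that of the E-box CAGCTG over its flanks. The GATA motif (AGATAA, in 12.9%) had ratios of 0.873 and 0.961.

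The motifs of MEF2 (CTA and TAG with 4 bases between them) and STAT factors (TTC and GAA with 3 between) were in 3.30% and 7.44% of eligible windows, and members stood at 1.03 and 0.891 times these shares and at 1.05 and 1.06 times the flanks. That of IRF factors, a pair of GAAA 2 bases apart, was in 3.28% of eligible windows, with ratios of 1.02 and 1.17. Farther below 1 on both scales were a core of the CTCF site (CCA, AG and GGC, each 2 bases from the next), in 1.202% of eligible windows, at 0.810 and 0.557, and the homeodomain dimer of PAX3 (TAAT and ATTA, 3 bases apart), in 0.595%, at 0.636 and 0.755. The palindromic motif of NFI (TTGGC and GCCAA, 5 bases apart) was in only 7 members and 0.0127% of eligible windows. Both strands were searched, and a match is a description of the letters and no measure of binding.

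**Figure D5:**
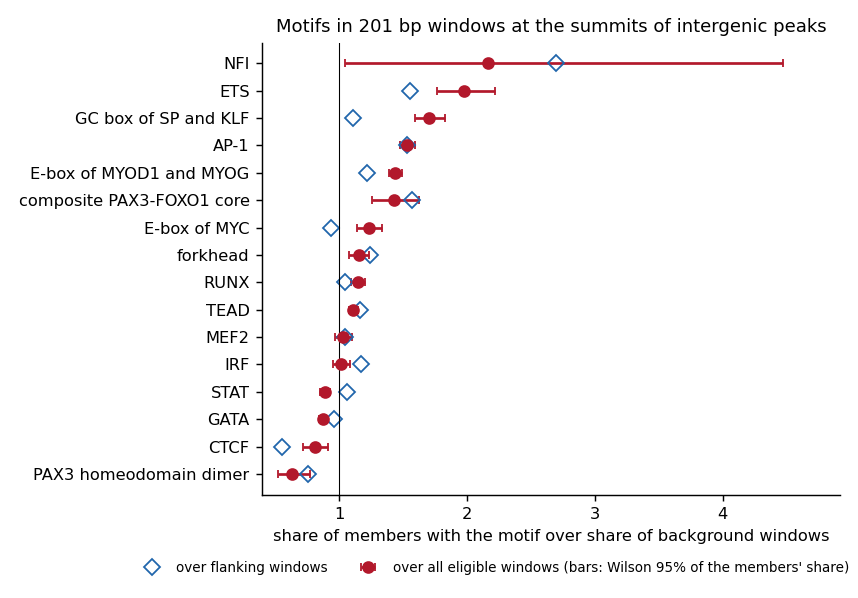
Share of members with each motif within 100 bp of the summit divided by the share of background windows (x axis) for 16 motifs (y axis), over all eligible windows as red points with the Wilson 95% interval of the members' share and over flanking windows as blue open diamonds. AP-1 lies at 1.53 and 1.54, the GC box at 1.71 and 1.11, and CTCF below 1 on both.

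Runs of at least 20 bases made of a repeated unit of 1 or 2 bases, as in the Odf1 window, were in 5.35% of the members (5.08 to 5.63%) and in 3.63% of eligible windows. Among the 994 members with a fold of 10 or more the share was 11.1% (9.26 to 13.2%), against 5.11% (4.84 to 5.40%) of those below. Peaks of such a fold more than 100 kb from a start site held them in 10.5% (7.48 to 14.5%), those in introns in 7.88% (6.78 to 9.14%) and promoter peaks in 4.01% (3.23 to 4.98%).

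Regions already shown to act as enhancers overlapped members more often than other sequence. RefSeq lists 377 enhancers tested in experiments within the eligible sequence, and 75 of them (19.9%, 16.2 to 24.2%) overlapped a member, against 3.88% of 404151 eligible windows of their median length, 1997 bp. Those active in the limb did so in 23 of 79 cases (29.1%), in the heart in 18 of 59 (30.5%), in the forebrain in 19 of 75 (25.3%), in the neural tube in 14 of 41 (34.1%) and in somites, which give rise to muscle, in 3 of 18 (16.7%). In the midbrain the count was 14 of 71 (19.7%), in blood vessels 0 of 4 and in muscle 0 of 1. The intervals of these tissues overlapped, and an enhancer can be active in several of them. The limb, forebrain and neural tube sets had median lengths of 2507, 2741 and 2729 bp. Longer regions have more room for a member, so the 3.88% of 1997 bp windows is not a matched background for these sets. A pair of listed enhancers of limb and facial mesenchyme, which overlap each other, lay about 78 kb upstream of Fgfr1 (chr8:25440188-25442103 is the nearer to the gene) and held its strongest member, with a fold of 11.2. A forebrain enhancer 72.6 kb upstream of Irf2bp2 held 4 members.

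The members rest on the start sites and transcripts of RefSeq. Under GENCODE M21, which lists more transcripts, 76.2% of them stayed intergenic, 9.81% fell at a promoter and 13.9% in a transcript.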

How the data were processed

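CUT&RUN libraries of MCP and TCP tumors were made with H3K27ac or IgG antibodies per the labels. According to the methods, read pairs were mapped to mm10 and peaks were called against IgG. Reads in problematic regions or near Col19a1, where an amplification was seen, were removed before the calling. The methods name bowtie and an early MACS, and the submitters' processing notes name BWA, SAMtools and MACS2. The calling threshold of the deposited list, and whether these reads were removed for it, thus stay unknown. In the deposited list each peak has a score, a fold enrichment (a ratio over local background) and the −log10 of p and q, as written by the authors' caller. Names number the peaks up to 122959, and 584 numbers (0.475%) are absent. What they held is unknown, and 109 members lie beside such a place. The number at the front of each name is found only in the description of the library titled MCP H3K27ac 5. That description itself calls the library MCP_H3K27ac_1, so the replicate number used here is that of the title.

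Start sites were those of 45756 curated RefSeq transcripts on GRCm38, which is mm10. The nearest start was taken from the summit, and its strand set upstream and downstream. Eligible sequence was counted base by base. Fragments at each summit were solved from fold and −log10 p with a scale of 0.885 between libraries, and a whole number of fragments gave the listed −log10 p within 0.01 for all peaks but 1 at a promoter, a number that was unique in 91.4%. They are inferred, not counted, and PCR copies among them are not independent. Shares have Wilson 95% intervals, medians exact binomial and densities exact Poisson intervals, all of which treat peaks as independent. No test was run, since peaks of 1 list are not replicates.

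Named were genes of 11 lists, the 10 genes nearest to most members, the 10 members of highest fold, the 3 strongest of each distance class and side (the first of them in the text), and the 5 longest runs. Some genes of the lists are counted but not reported by name here. Members, lists and motifs were chosen with earlier results of these data known. Python 3.11.15, NumPy 2.4.6, pandas 2.3.3, SciPy 1.17.1 and statsmodels 0.14.6 were used, and the steps were tested on simulated data. Alternatives were stronger peaks (the strongest 25%, or −log10 q of at least 5), a promoter window of 1 kb, protein-coding genes only, midpoints for summits, 1 peak per 1 kb, fewer chromosomes, other distance classes, windows and backgrounds, and GENCODE M21.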

Additional observations from a re-analysis of the deposited data

How the results depend on the processing

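No paired analysis was possible because a single peak list of 1 library was used, and nothing could be left out by replicate. Over 8 values and 11 alternatives, 29 of 67 values stayed within the interval of the reported value (within 1.5 times for the number of members), 37 moved beyond it and 1 crossed 1. The ratios of near to far density, of marked start sites and of AP-1 kept their side of 1 in all alternatives run on them. The exception was the upstream to downstream ratio, which was 0.986 with protein-coding genes only. The cause was not tested.

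With the strongest 25% of the list there were 6295 members (20.2% of the peaks), the median fold was 7.74 and the median width 469 bp, which follows from the choice of peaks. There the upstream to downstream ratio was 1.09, the marked ratio 2.56 and the AP-1 ratio 1.24. With −log10 q of at least 5 the values were 12039 members, a fold of 6.51, 289 bp and ratios of 1.07, 2.35 and 1.33 in that order. A promoter window of 1 kb gave a share of 21.8%, a near to far ratio of 1.66, an upstream to downstream ratio of 1.07 and a marked ratio of 2.19. Protein-coding genes only gave a share of 20.4%, a near to far ratio of 1.26 and a marked ratio of 1.95. Midpoints gave an AP-1 ratio of 1.67. Keeping the strongest of peaks within 1 kb gave 12122 members, a share of 21.1%, a near to far ratio of 1.46, a fold of 5.65, a width of 195 bp, a marked ratio of 2.07 and an AP-1 ratio of 1.60. Without chromosomes 1, 6, 11 and 15 the near to far ratio was 1.46 and the marked ratio 2.24. Density at 2 to 5 kb was 1.61 times that at 50 to 100 kb. Windows that reach 50 bp either side of the summit gave an AP-1 ratio of 1.42. GENCODE M21, added after the data were seen, gave a share of 20.4%, a near to far ratio of 2.02, an upstream to downstream ratio of 1.08, a fold of 5.13 and a marked ratio of 3.80.

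With a median of 13 fragments at a summit, a region of lower acetylation can fall below the caller's threshold, so genes without a member cannot be taken to lack acetylated sequence nearby.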
